A study of Mus musculus with 6 samples.

Results

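The 10 genes described here encode the CD3 chains of the T cell receptor complex (Cd3d, Cd3e and Cd3g), the coreceptors of its CD4 and CD8 subsets (Cd4, Cd8a and Cd8b1), the receptor-proximal kinase Lck, the costimulatory receptor Cd28 and the transcription factors Foxp3 and Tcf7. They were chosen by name, with earlier results of these data known. All 10 were found among the 54532 genes of the expression tables through the gene identifiers of GENCODE M21. Their levels were read in 6 RNA-seq libraries, 1 for each condition, of C57BL/6 mice aged 6 to 8 weeks. In 4 libraries the cells were labelled macrophages, from mice without leukemia given PBS (WT) or iron dextran (WT/FE) and from mice with MLL-AF9 leukemia given PBS (MA9) or iron dextran (MA9/FE), and in 2 libraries they were MA9 and MA9/FE leukemia cells of the BM. The leukemia came from c-kit+ BM cells infected with a retrovirus that carries MLL-AF9 and GFP, and these infected cells were transplanted to establish the disease. GFP+ leukemia cells were then sorted from such mice and passed to further C57BL/6 recipients, whose iron dextran began 1 week after this second transfer. It was injected i.p. at 0.2 mL of 25 mg/mL every other day, 6 times in all, and the mice without leukemia received no leukemia cells and the same volume of iron dextran or PBS. The macrophage gate of the study's methods was GFP-, Gr-1 low, F4/80+, CD115 intermediate and intermediate to low in side scatter. By the labels the macrophages came from the spleen, by the methods from the BM, and the number of mice behind a library was not given in the sources used here.

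The antigen-binding chains of the T cell receptor recognize peptide held by MHC molecules and have no signalling domain of their own. The CD3 chains carry the signal into the cell, the coreceptors CD4 and CD8 bind MHC class II and class I and bring the kinase Lck to the complex, and CD28 supplies the second signal from antigen-presenting cells. CD8 is a dimer of alpha chains alone or of an alpha and a beta chain, and the alpha-beta form is typical of cytotoxic T cells. In the mouse, Cd4 and Cd8a are also transcribed by subsets of dendritic cells, and CD28 and LCK are found outside the T lineage in some cells. Foxp3 defines regulatory T cells, and Tcf7 encodes TCF-1, which is needed for T cell development and is also made by innate lymphoid cells.

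Each library held 16085346 to 19518359 reads by the step between its low values, and a level is given in FPKM, reads divided by exon length and library depth. The cells labelled macrophages held each of 17 macrophage markers at 1 FPKM or more in all 4 libraries, and these summed to 551, 928, 528 and 1179 FPKM in the order WT, WT/FE, MA9, MA9/FE. In the same order, 16 B cell markers summed to 2699, 2576, 1659 and 2690 FPKM. The B cell list thus summed higher than the macrophage list in every one of these libraries, though a sum depends on the genes listed. A level is therefore that of a mixed RNA pool, in which fewer cells of a type and less RNA per cell cannot be told apart. With 1 library per condition no test between 2 libraries was possible, and the intervals given are exact 95% intervals that cover counting error only.

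Cd3d, Cd3g and Cd3e are neighbours on chromosome 9, where Cd3d and Cd3g are transcribed away from each other from start sites 1355 bases apart (GRCm38). Cd8b1 and Cd8a lie on the same strand of chromosome 6 with 35932 bases between them. The other genes lie apart, with Cd4 at chr6:124864692-124888221, Lck at chr4:129548344-129573641, Cd28 at chr1:60716800-60773359, Tcf7 at chr11:52252371-52283014 and Foxp3 at chrX:7573644-7595245, and all 10 are protein coding. The 250 bases upstream of the RefSeq start sites (build GRCm38.p6) are printed for the 3 CD3 genes, because Cd3d and Cd3g differed between libraries more than Cd3e did, and for Cd8a, which differed less than Cd8b1. Cd8b1, Cd4 and Cd28 were among the genes with no entry in the promoter table. Capitals mark TCF/LEF (CTTTGA), RUNX (TGTGGT) and ETS (GGAAGT) motifs on either strand, and no base is shared by 2 of these matches.
Cd3d (chr9:44981536-44981785, plus strand): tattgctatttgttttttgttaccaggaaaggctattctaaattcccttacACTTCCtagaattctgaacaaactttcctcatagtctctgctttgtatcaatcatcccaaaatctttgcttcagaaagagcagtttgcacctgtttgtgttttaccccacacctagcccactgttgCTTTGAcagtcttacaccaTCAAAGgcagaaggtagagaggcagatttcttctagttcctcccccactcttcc
Cd3g (chr9:44980432-44980681, minus strand): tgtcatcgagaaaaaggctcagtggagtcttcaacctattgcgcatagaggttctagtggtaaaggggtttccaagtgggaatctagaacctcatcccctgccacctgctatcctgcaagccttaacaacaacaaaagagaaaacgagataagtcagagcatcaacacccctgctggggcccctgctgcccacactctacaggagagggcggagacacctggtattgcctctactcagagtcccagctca
Cd3e (chr9:45009612-45009861, minus strand): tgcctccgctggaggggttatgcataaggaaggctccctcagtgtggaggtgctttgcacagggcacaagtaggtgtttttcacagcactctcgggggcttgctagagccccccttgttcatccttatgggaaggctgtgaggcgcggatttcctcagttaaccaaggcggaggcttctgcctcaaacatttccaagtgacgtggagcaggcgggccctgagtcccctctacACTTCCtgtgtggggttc
Cd8a (chr6:71373177-71373426, plus strand): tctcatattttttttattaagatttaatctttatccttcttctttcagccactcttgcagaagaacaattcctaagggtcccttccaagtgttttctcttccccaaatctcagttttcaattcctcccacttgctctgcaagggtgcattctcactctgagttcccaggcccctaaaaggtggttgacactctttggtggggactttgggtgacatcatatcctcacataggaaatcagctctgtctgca
The Cd3d window held 2 TCF/LEF matches and 1 ETS match, and the Cd3e window 1 ETS match. None of these 3 motifs was found in the windows of Cd3g and Cd8a. Among 32851 promoter windows of this length, 13.8% held the TCF/LEF letters, 14.0% the RUNX letters and 19.7% the ETS letters. The letters CANNTG (E-box) and AGATAA (bound by factors of the Gata family) were also searched on both strands and are not in capitals, and 66.2% and 9.99% of all windows held them. The Cd3g window held 3 E-box matches and 1 match of the other motif, the Cd8a window 2 E-box matches, and the windows of Cd3d and Cd3e 1 E-box match each. Of the other members, Lck held a RUNX and an ETS match at the upstream one of its 2 start sites and an ETS match at the other, Tcf7 held 2 ETS matches at one of its 2 start sites, and Foxp3 held no TCF/LEF, RUNX or ETS match at either of its 2 start sites.

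**Figure D1:**
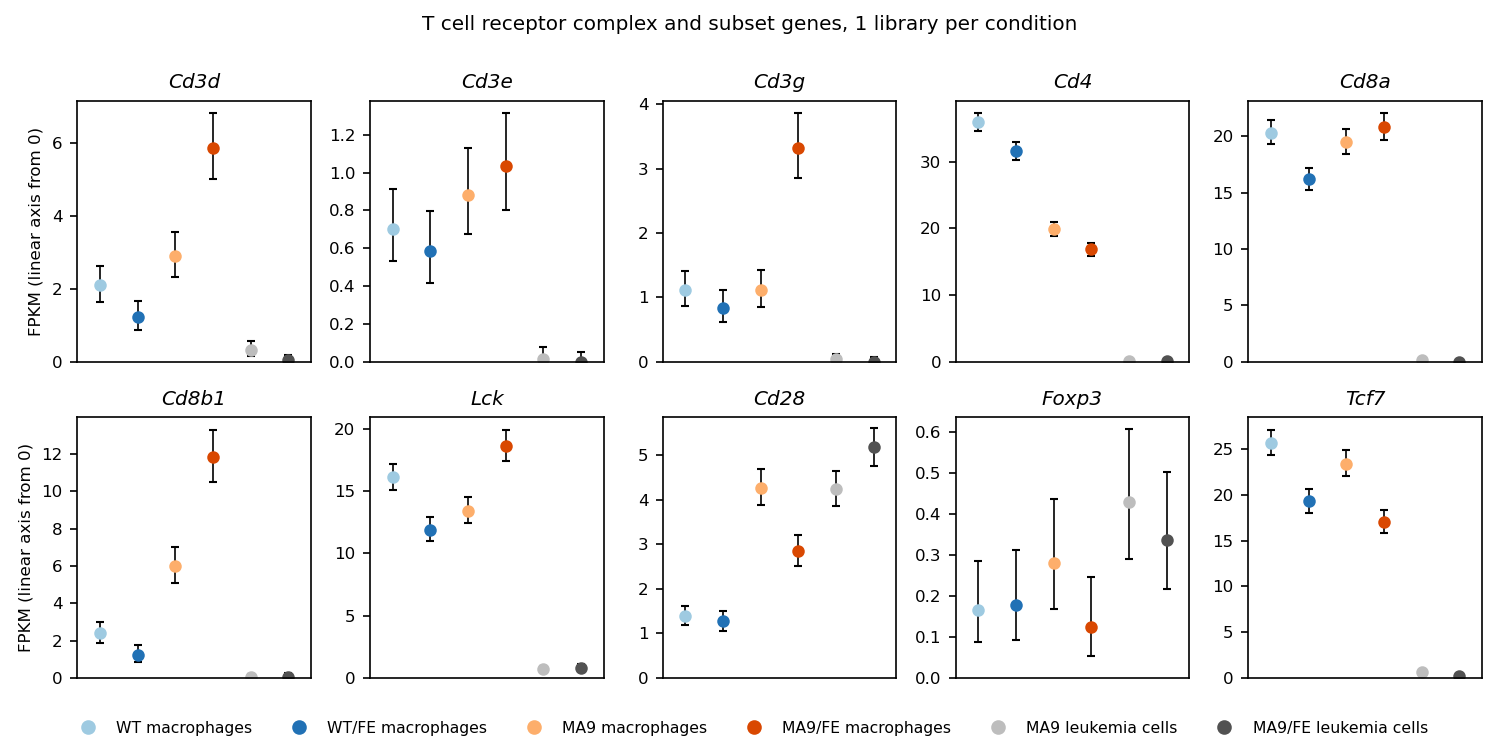
FPKM (linear axis from 0) of each of the 10 genes in the 6 libraries, 1 point per library with its exact 95% counting interval. Cd4 was lower in both MA9 macrophage libraries (19.8 and 16.8) than in WT and WT/FE (35.9 and 31.6), Cd8b1 was higher in them (5.99 and 11.8 against 2.38 and 1.24), and Cd28 was the only gene of the 10 above 1 FPKM in the leukemia cells (4.24 and 5.17).

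Transcripts of all 10 genes were read in every macrophage library, and they fell into an abundant and a scarce group. Cd4, Tcf7, Cd8a and Lck lay between 11.9 and 35.9 FPKM in the 4 macrophage libraries. Cd8b1 and the 3 CD3 genes lay between 0.584 and 11.8 FPKM, Cd28 between 1.27 and 4.27 FPKM, and Foxp3 never above 0.280 FPKM. In WT macrophages the order was Cd4, Tcf7, Cd8a and Lck, with no overlap between the intervals of neighbours, followed far below by Cd8b1 and Cd3d, whose intervals overlapped. In MA9/FE macrophages Cd8a, Lck, Tcf7 and Cd4 came in that order, and each of these overlapped the next. The scarcity of the CD3 genes depends in part on the exon length used in the deposited values. All exons of Cd3e and Cd3g together span 4080 and 3269 bases against 1462 and 1023 in the principal transcript, and per kilobase of the principal transcript their ranges were 1.63 to 2.89 and 2.68 to 10.6 in the 4 macrophage libraries. On that scale Cd4 ranged from 21.8 to 46.6.

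Among the CD3 chains, which transmit the receptor's signal, Cd3d and Cd3g stood highest in MA9/FE macrophages and Cd3e varied less. Cd3d was at 2.09, 1.21, 2.88 and 5.86 FPKM in the WT, WT/FE, MA9 and MA9/FE macrophage libraries, from 74, 37, 89 and 171 reads. Cd3g was at 1.11, 0.838, 1.12 and 3.33 FPKM in the same order, from 71, 46, 62 and 175 reads. Both were lowest in WT/FE and highest in MA9/FE, and the Cd3g levels of WT and MA9 differed by less than counting error. Cd3e was at 0.703, 0.584, 0.879 and 1.04 FPKM, from 56, 40, 61 and 68 reads, and its intervals overlapped between WT and each of the other 3 macrophage libraries. The ratio of Cd3g to Cd3e within a library was 1.58 (95% interval 1.10 to 2.29) in WT, 1.44 (0.919 to 2.25) in WT/FE and 1.27 (0.876 to 1.84) in MA9, and 3.21 (2.41 to 4.32) in MA9/FE, where its interval lay above the others. Cd3e shares 135 exonic bases with the antisense gene Gm48719, and whether reads were counted by strand was not given in the sources used here.

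Of the coreceptors, Cd4, which marks helper T cells, and Cd8b1, the beta chain of CD8, differed in opposite directions with leukemia, while the alpha chain Cd8a stayed within a narrow range. Cd4 was at 35.9, 31.6, 19.8 and 16.8 FPKM in the WT, WT/FE, MA9 and MA9/FE macrophage libraries, from 2824, 2138, 1360 and 1091 reads. Cd8b1 was at 2.38, 1.24, 5.99 and 11.8 FPKM, from 69, 31, 151 and 282 reads. The 2 libraries with leukemia were thus below both libraries without it for Cd4 and above both for Cd8b1. Cd8a was at 20.3, 16.2, 19.5 and 20.8 FPKM, from 1444, 989, 1207 and 1219 reads, and WT/FE was the low library.

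Within each library the coreceptor ratios do not depend on the scaling between libraries. The ratio of Cd4 to Cd8a was 1.76 (1.66 to 1.88) in WT and 1.95 (1.81 to 2.10) in WT/FE, but 1.02 (0.940 to 1.10) in MA9 and 0.807 (0.743 to 0.877) in MA9/FE macrophages. For Cd8b1 to Cd8a the ratio was 0.117 (0.0907 to 0.149) in WT, 0.0769 (0.0519 to 0.110) in WT/FE, 0.307 (0.257 to 0.364) in MA9 and 0.567 (0.497 to 0.646) in MA9/FE. Both ratios separated the libraries with leukemia from those without it beyond counting error, and MA9/FE was the extreme in each. The ratio of Cd3d to Cd8b1 was 0.876 and 0.975 in WT and WT/FE and 0.482 and 0.495 in MA9 and MA9/FE, and that of Cd3d to Cd8a ranged from 0.0750 in WT/FE to 0.281 in MA9/FE. The 12 dendritic cell markers summed to 597, 545, 429 and 392 FPKM in the order WT, WT/FE, MA9, MA9/FE, and none of them was at 0 in any macrophage library. The largest part of the sum came from Itgax, which encodes CD11c, at 159, 148, 109 and 88.2 FPKM, and Wdfy4 at 111, 111, 93.7 and 66.3 FPKM. Singly, 9 of the 12 had a difference below 0 and 3 above it in MA9 against WT. In MA9/FE against MA9, 7 were below 0 and 5 above. None passed the limma leukemia term described below, and 2 had an unadjusted p under 0.05, as did 2669 of the 16249 genes tested. The 10 erythroid markers summed to 99.7, 212, 297 and 517 FPKM and the 7 plasma cell markers to 1069, 1042, 2130 and 2606 FPKM, both higher in the leukemic mice as Cd8b1 was, with no marker at 0. The part of these lists in the Cd4 and Cd8b1 values was not tested.

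**Figure D2:**
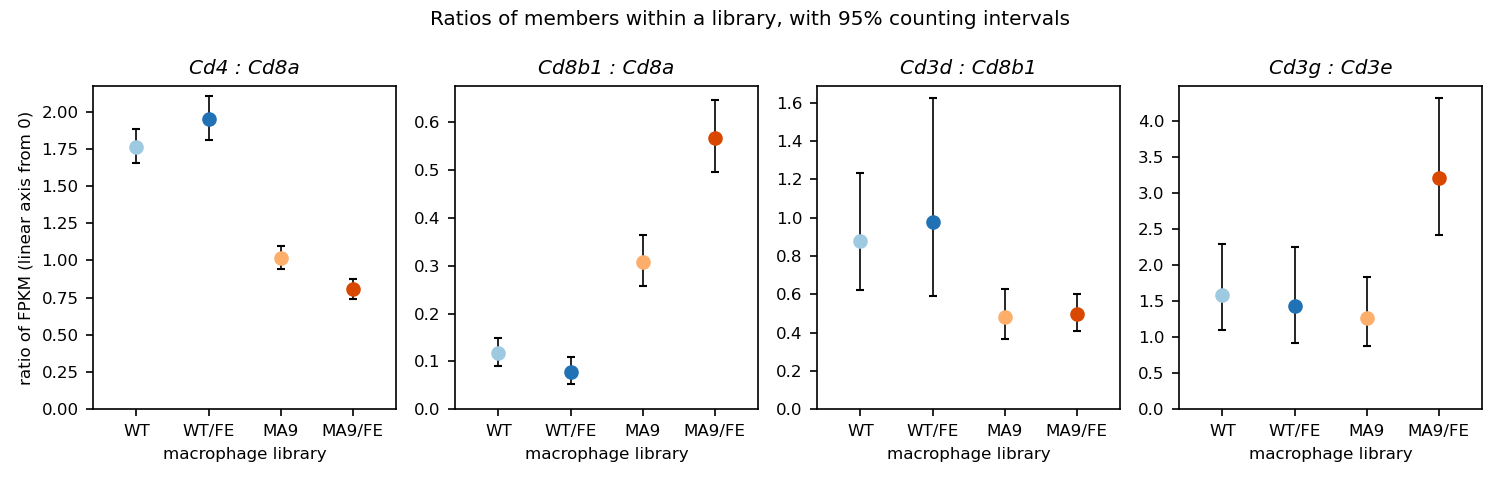
Ratio of the FPKM of 2 genes within each macrophage library (linear axis from 0), with exact 95% counting intervals. From WT to MA9/FE the ratio of Cd4 to Cd8a was 1.76, 1.95, 1.02 and 0.807, and that of Cd8b1 to Cd8a 0.117, 0.0769, 0.307 and 0.567.

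Lck, the kinase carried by CD4 and CD8, was at 16.1, 11.9, 13.4 and 18.7 FPKM in the WT, WT/FE, MA9 and MA9/FE macrophage libraries, from 922, 586, 669 and 879 reads. It was thus lowest in WT/FE and highest in MA9/FE, as Cd3d was, but over a range of less than 2-fold. Cd28, the costimulatory receptor, was at 1.38, 1.27, 4.27 and 2.84 FPKM, from 165, 131, 444 and 280 reads. Both libraries with leukemia exceeded both without it, and MA9 exceeded MA9/FE. Tcf7 was at 25.7, 19.3, 23.4 and 17.0 FPKM, from 1315, 853, 1045 and 719 reads, and each iron library was below its PBS counterpart. Foxp3 was at 0.167, 0.179, 0.280 and 0.125 FPKM, from 13, 12, 19 and 8 reads, and its intervals overlapped among all 4 macrophage libraries. In GENCODE M21 the exons of Foxp3 overlap those of Flicr on the same strand over 853 bases and those of Ccdc22 on the other strand over 590 bases, so its values are uncertain at this depth. The deposited Foxp3 values fit an exon length of 3989 bases rather than the 4577 of M21. Whether these overlaps lie in the gene model used was not given in the sources used here.

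The leukemia contrast was the only one in which genes of the 10 passed a test across libraries. All 10 passed the minimum of reads. An additive fit with limma over the 4 macrophage libraries, with terms for iron and leukemia, gave a change with leukemia in 3 of the 10 genes at an adjusted p of 0.05, against 3.36% of the 16249 genes tested. Cd8b1 rose by 1.81 on the log2(FPKM + 1) scale (SE 0.33, limma adjusted p = 0.0226), and Cd28 rose by 0.97 (SE 0.21, limma adjusted p = 0.0446). Cd4 fell by 0.81 (SE 0.18, limma adjusted p = 0.0451). The leukemia libraries lay on one side of both others in each of the 3 genes. Cd3d had a difference of 1.01 (SE 0.31, limma adjusted p = 0.129), Cd3g one of 0.64 (SE 0.28, limma adjusted p = 0.301), and the other 5 genes had adjusted p between 0.452 and 0.920. The fit leaves 1 residual degree of freedom per gene, so its error rests mostly on the spread shared by all genes, and the median over the 10 genes was 0.24 against 0.01 over all genes tested. With no minimum of reads, which raised the genes tested to 27356, none of the 10 passed. Of the 10, 3 then had an unadjusted p under 0.05, as did 2523 of the 27356. Under each of the 4 other settings tried, 3 of the 10 passed.

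In the pair of libraries without iron, MA9 against WT macrophages, 2 of the 10 genes were at least 2-fold higher and none at least 2-fold lower, where 3.8% and 0.905% of 16909 genes were. This call is made on log2(FPKM + 1) after TMM scaling, and it needs 10 reads in one library of the pair. The 2 genes were Cd28, at a ratio of reads of 3.13 (2.61 to 3.77), and Cd8b1, at 2.55 (1.90 to 3.44). Cd3d had a ratio of 1.40 (1.02 to 1.93). Cd4 had a ratio of 0.560 (0.525 to 0.598) and Lck one of 0.844 (0.763 to 0.933), and the intervals of the other 5 genes held 1. Of all genes tested in this pair, 29.2% had an interval above 1 and 25.2% one below. The median log2 difference of the 10 genes was 0.07, against 0.00 over all genes tested.

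Under iron load, MA9/FE against WT/FE macrophages, 3 of the 10 genes were at least 2-fold higher, where 3.03% of 16549 genes were, and none was at least 2-fold lower (1.6%). Cd8b1 had a ratio of reads of 9.73 (6.70 to 14.6), the largest in any macrophage comparison of the 10 genes. Cd3d was at 4.94 (3.45 to 7.26) and Cd3g at 4.07 (2.93 to 5.76). Cd28 at 2.29 (1.85 to 2.84) missed the call because 1 is added to each FPKM before the logarithm. Cd3e at 1.82 (1.21 to 2.76), Lck at 1.60 (1.44 to 1.78) and Cd8a at 1.32 (1.21 to 1.44) were also above 1. Cd4 at 0.546 (0.507 to 0.587) and Tcf7 at 0.902 (0.815 to 0.997) were below 1, and Foxp3 at 0.713 (0.253 to 1.90) held 1. The Tcf7 interval held 1 with hemoglobin and immunoglobulin genes left out of the TMM scaling. Intervals above 1 were found for 33.1% and below 1 for 26.9% of all genes tested. The median log2 difference was 0.51 for the 10 genes and 0.02 over all genes tested.

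**Figure D3:**
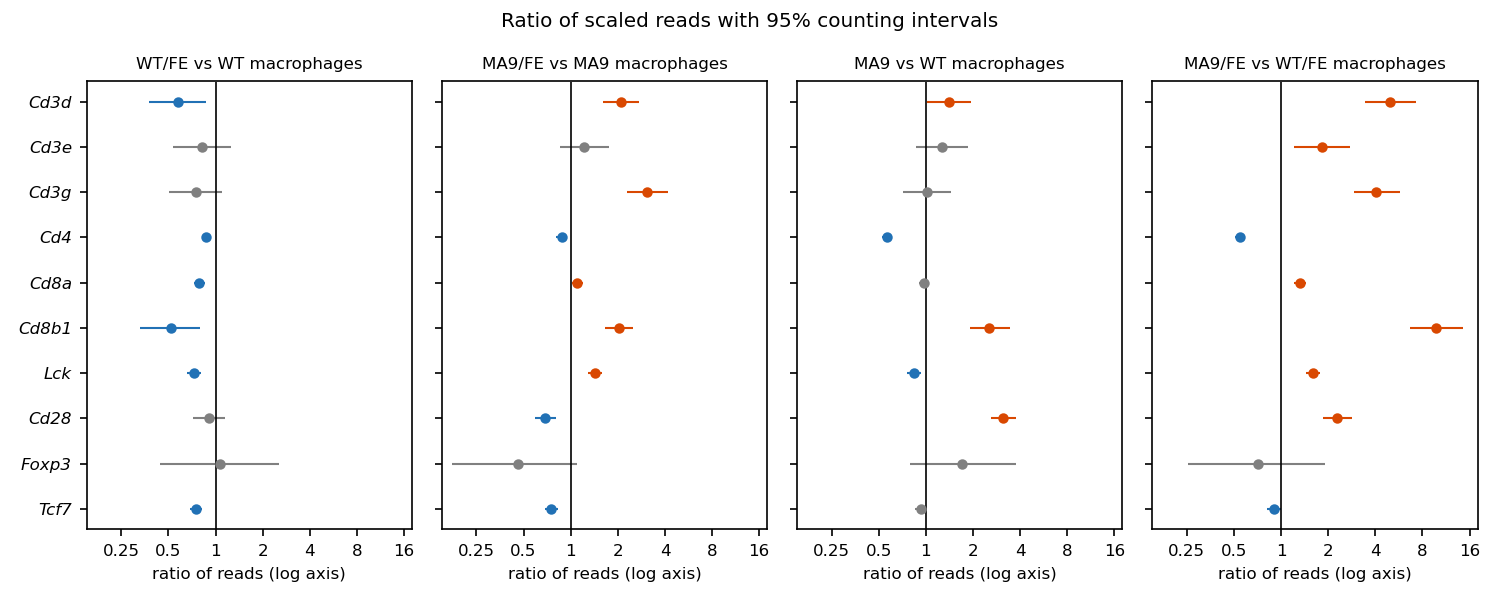
Ratio of scaled reads (log axis) of each of the 10 genes in the 4 macrophage comparisons, with exact 95% counting intervals, orange where the interval lies above 1, blue where it lies below and grey where it holds 1. With iron, 6 intervals lay below 1 in mice without leukemia (19.7% of all genes tested), and in mice with it 5 lay above 1 (30.2%) and 3 below (25.2%). With leukemia, Cd8b1 was at 2.55 in the PBS libraries and 9.73 in the iron libraries.

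Iron alone was examined in WT/FE against WT macrophages, where none of the 10 genes reached a 2-fold difference (1.27% of 16737 genes did). Counting intervals lay below 1 for 6 of the 10 genes, against 19.7% of all genes tested. They were those of Cd8b1 at 0.517 (0.327 to 0.801), Cd3d at 0.576 (0.377 to 0.865), Lck at 0.732 (0.659 to 0.812), Tcf7 at 0.747 (0.684 to 0.815), Cd8a at 0.788 (0.726 to 0.855) and Cd4 at 0.871 (0.823 to 0.922). No interval of the 10 lay above 1 (14.9% of all genes tested), and the median log2 difference was -0.27 for the 10 genes against -0.02 over all genes tested. The NK cell markers moved with them. All 12 had a difference below 0, none was at 0 in either library, and they summed to 206 FPKM in WT and 129 FPKM in WT/FE. Of the 12 dendritic cell markers 11 were below 0 and 1 above, with a median difference of -0.17 against -0.65 for the NK cell markers. The 17 macrophage markers were higher in WT/FE without exception (551 and 928 FPKM summed), and the part of these lists in the members' values was not tested.

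Iron in leukemic mice was examined in MA9/FE against MA9 macrophages. Cd3g was the 1 gene at least 2-fold higher, where 1.2% of 16493 genes were, and none was at least 2-fold lower (1.24%). Its ratio was 3.08 (2.29 to 4.19). Cd3d at 2.10 (1.61 to 2.74), Cd8b1 at 2.04 (1.67 to 2.50) and Lck at 1.43 (1.30 to 1.59) lay above 1, and Cd8a was at 1.10 (1.02 to 1.19). Tcf7 at 0.751 (0.682 to 0.827), Cd28 at 0.688 (0.591 to 0.801) and Cd4 at 0.876 (0.808 to 0.949) lay below 1, and the intervals of Cd3e and Foxp3 held 1. Thus 5 of the 10 intervals lay above 1, where 30.2% of all genes tested did, and 3 below, where 25.2% did. The Cd8a interval held 1 when total reads set the scale (0.985 to 1.16), and with the trend of differences on exon length removed Cd3g was at a log2 difference of 0.99, just under the 2-fold call. All 16 B cell markers and all 17 macrophage markers were higher in MA9/FE, with sums of 1659 and 2690 FPKM and of 528 and 1179 FPKM. Of the 15 neutrophil markers 14 were lower and 1 higher, with sums of 1935 and 990 FPKM. Of the 12 NK cell markers 10 were higher and 2 lower. The part of these lists in the members' values was not tested.

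Across the 4 macrophage libraries, limma found an iron term in none of the 10 genes (adjusted p = 0.9997 in each) and in 0.0246% of all genes tested. At an unadjusted p under 0.05 there was 1 gene of the 10, and 710 of the 16249 genes tested. The 1 gene of the 10 was Tcf7, with a difference of -0.41 (SE 0.18, limma adjusted p = 0.9997). The iron term averages the pairs without and with leukemia, so differences in opposite directions cancel in it and count as error. The ratios of Cd3d, Cd8b1 and Lck went in opposite directions, and their iron terms were 0.17, 0.15 and 0.02. For these genes the term does not measure iron within a pair. Over all 3 pairs of libraries, leukemia cells included, none of the 10 genes passed either. Of the 10, 1 had an unadjusted p under 0.05 there, as did 612 of the 17129 genes tested. Whether the effect of iron differs with leukemia could not be tested with 1 library per condition, and the comparisons share libraries with each other.

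In the leukemia cells Cd28 was the most abundant of the 10 genes. It was at 4.24 FPKM in MA9 and 5.17 FPKM in MA9/FE leukemia cells, from 471 and 565 reads, and the iron ratio was 1.22 (1.08 to 1.38). Lck was at 0.696 and 0.841 FPKM, from 37 and 44 reads, Tcf7 at 0.629 and 0.256 FPKM, from 30 and 12 reads, and Foxp3 at 0.428 and 0.337 FPKM, from 31 and 24 reads. Cd3d had 10 reads in MA9 and 1 in MA9/FE, Cd4 had 9 and 8, Cd8a had 6 and 0, and Cd8b1, Cd3g and Cd3e had at most 2. No gene of the 10 reached a 2-fold difference with iron in these cells (0.864% of 15393 genes did), and 5 of the 10 had the 10 reads the call needs. The intervals of Tcf7 at 0.406 (0.189 to 0.817) and Cd3d at 0.102 (0.00234 to 0.714) lay below 1, as did that of Cd8a, whose 6 and 0 reads allow a ratio of up to 0.862 and are under the minimum of 10. Of all genes tested, 15.4% had an interval above 1 and 14.6% one below.

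Leukemia cells were set against macrophages of the same condition. In MA9, 7 of the 10 genes were at least 2-fold lower in leukemia cells, where 12.6% of 17022 genes were, and in MA9/FE 8 were, where 13.2% of 16819 genes were. Cd4 in leukemia cells was at 0.00608 (0.00278 to 0.0116) of its level in MA9 macrophages. Cd8a, with no read in MA9/FE leukemia cells, was at least 462-fold lower there than in MA9/FE macrophages when 3 reads are taken as the limit that a count of 0 allows, and Cd3g and Cd3e were at least 66.3-fold and 25.8-fold lower. Cd28 was the exception, at 0.975 (0.855 to 1.11) of the macrophage level in MA9 and 1.78 (1.54 to 2.06) of it in MA9/FE. Foxp3 did not reach the call in either pair, at 1.50 (0.821 to 2.81) and 2.64 (1.15 to 6.80). Cd3e, with 1 read in MA9 leukemia cells and 61 in MA9 macrophages, was at 0.0151 (0.000376 to 0.0872). It missed the call in MA9 because 1 is added to each FPKM before the logarithm.

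Because Cd28 was read in both kinds of cells, the leukemia markers are given beside it. The 10 leukemia markers summed to 218 and 221 FPKM in the leukemia cells and to 33.8, 29.4, 31.4 and 23.2 FPKM in the WT, WT/FE, MA9 and MA9/FE macrophage libraries, with only Hoxa10 at 0 in WT and WT/FE. Most of the macrophage sum was Kit, the receptor of stem cell factor, at 26.8, 24.4, 24.4 and 16.2 FPKM there and at 11.3 and 10.8 FPKM in the leukemia cells. Hoxa9, an MLL-AF9 target, was at 0.119, 0.128, 0.791 and 0.724 FPKM in the macrophage libraries and at 40.6 and 41.0 FPKM in the leukemia cells. It rose with leukemia by 0.65 (SE 0.13, limma adjusted p = 0.0285), and of the 8 leukemia markers tested Cd34 passed as well. The other 6 did not pass, and the median difference of the list was 0.10. In MA9 against WT macrophages, 5 of the 9 markers with enough reads were above 0 and 4 below. Hoxa5 was at least 2-fold lower in that pair, at a ratio of 0.310 (0.203 to 0.461). In MA9/FE against WT/FE macrophages, 6 of 9 were above 0 and 3 below, and Hoxa5 was at 0.909 (0.613 to 1.34). Cd34, a surface protein of blood progenitors, was at 0.351, 0.367, 1.79 and 1.20 FPKM in the macrophage libraries and at 35.3 and 36.2 FPKM in the leukemia cells, and rose by 0.88 (SE 0.17, limma adjusted p = 0.0253). The 15 neutrophil markers summed to 6281 and 4952 FPKM in the leukemia cells. In the macrophage libraries they summed to 19.0, 20.3, 1935 and 990 FPKM, with Ly6g and Mmp8 at 0 in both libraries without leukemia. With leukemia 12 of the 15 rose in the limma fit, where 3.36% of all genes tested passed in either direction. The part of either list in the Cd28 values was not tested.

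The other genes of the T cell receptor and of T cells were examined as 6 lists, none of whose genes passed the limma iron term. For iron, 0 or 1 gene per list had an unadjusted p under 0.05, as did 710 of the 16249 genes tested. The constant regions of the receptor chains summed to 42.5, 26.7, 34.6 and 69.7 FPKM in the WT, WT/FE, MA9 and MA9/FE macrophage libraries and to 1.14 and 0.560 FPKM in leukemia cells, over the 4 of 7 listed genes that were matched. Trac, the alpha chain constant region, was at 5.59, 3.31, 4.84 and 11.5 FPKM, and Trbc2, of the beta chain, at 14.6, 9.81, 14.4 and 31.4 FPKM. Trbc1 was at 21.6, 13.2, 14.8 and 26.2 FPKM, and since Trbc1 and Trbc2 are nearly identical, the division of reads between them is uncertain. Like Cd3d, each of these 3 was lowest in WT/FE and highest in MA9/FE. Trac and Trbc2 were 2 of 4 measured constant genes at least 2-fold higher in MA9/FE than in WT/FE, and likewise than in MA9. Of all genes tested, 3.03% and 1.2% were. None of the 4 passed the limma test with leukemia, with a median difference of 0.48. Of the 4, 1 had an unadjusted p under 0.05 for leukemia, as did 2669 of the 16249 genes tested. The 144 variable segments of the receptor summed to 16.6, 9.17, 20.7 and 36.3 FPKM in the macrophage libraries, again lowest in WT/FE and highest in MA9/FE. In the same order 103, 124, 109 and 97 of the 144 were at 0.

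The 23 other genes of receptor-proximal signalling include enzymes that most leukocytes transcribe. Of these, Ptpn6, a phosphatase, was the most abundant at 276, 258, 200 and 252 FPKM, with the kinase Csk at 142, 130, 110 and 143 FPKM and Ptprc, which encodes CD45, at 106, 99.7, 78.1 and 80.1 FPKM. None of the 23 passed the limma test with leukemia, and their median difference was 0.00. Of the 23, 2 had an unadjusted p under 0.05, as did 2669 of the 16249 genes tested. Lat, the adaptor that couples the receptor to its signalling partners, was the 1 gene at least 2-fold higher in MA9/FE than in WT/FE. It was at 6.49 against 2.67 FPKM, a ratio of 2.49 (2.01 to 3.10), and 3.03% of all genes tested were at least 2-fold higher. None of the 15 other T cell transcription factors passed the limma test with leukemia (median difference -0.06) or reached a 2-fold difference in the 4 macrophage comparisons. Of the 15, 1 had an unadjusted p under 0.05 for leukemia, against the same 2669 of 16249 genes. Ets1 was the most abundant of them, at 63.6, 62.6, 43.7 and 52.9 FPKM, before Id3 at 24.1, 22.2, 15.4 and 30.4 FPKM and Runx3 at 26.7, 23.5, 23.2 and 18.3 FPKM.

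Among 24 tested genes of the T cell surface and costimulation list, 3 rose with leukemia in the limma fit, where 3.36% of all genes tested passed in either direction. Tigit, an inhibitory receptor, was at 3.34, 4.79, 12.6 and 12.4 FPKM in the WT, WT/FE, MA9 and MA9/FE macrophage libraries and rose by 1.46 (SE 0.21, limma adjusted p = 0.00972). Ctla4, which competes with Cd28 for the same ligands, was at 1.47, 2.50, 5.07 and 5.50 FPKM and rose by 1.12 (SE 0.22, limma adjusted p = 0.0299). Pdcd1, which encodes PD-1, was at 0.557, 0.216, 1.52 and 1.90 FPKM and rose by 0.99 (SE 0.19, limma adjusted p = 0.0255). The other 21 did not pass, and the median difference of the list was -0.09. The most abundant were Btla at 126, 146, 72.4 and 104 FPKM, Ccr7 at 130, 110, 142 and 117 FPKM and Cd7 at 106, 70.1, 78.1 and 77.4 FPKM, all of which are also transcribed outside the T lineage. Thy1 was at 5.22, 2.58, 5.89 and 8.91 FPKM and Cd6 at 0.722, 0.560, 1.38 and 2.28 FPKM. They were 2 of the 4 genes of the list at least 2-fold higher in MA9/FE than in WT/FE. The list had 24 genes with enough reads in that pair, and 3.03% of all genes tested were at least 2-fold higher. In MA9 against WT, 2 of 25 were, where 3.8% of all genes tested were. None of the list was at least 2-fold lower in either pair (1.6% and 0.905% of all genes tested).

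Of 12 regulatory T cell genes, Ctla4 and Il10 rose with leukemia and the other 10 did not pass, with a median difference of -0.14 over the list. Of all genes tested, 3.36% passed the limma leukemia term in either direction. Il10, a suppressive cytokine that macrophages and B cells also make, was at 0.626, 1.14, 2.87 and 3.46 FPKM and rose by 1.18 (SE 0.20, limma adjusted p = 0.0171), whereas Foxp3 itself had a difference of 0.04 (SE 0.12, limma adjusted p = 0.920). The receptors Tnfrsf18 at 9.01, 9.53, 5.36 and 8.32 FPKM and Tnfrsf4 at 7.09, 7.63, 6.12 and 5.92 FPKM were the most abundant of the list. Of the 6 tested cytokine and effector genes, Gzmk, a granzyme, rose by 1.07 (SE 0.19, limma adjusted p = 0.0204), from 0.775 and 0.514 FPKM to 2.29 and 2.51 FPKM, and 5 did not pass, with a median difference of 0.30 over the 6. Ccl5 was at 211, 152, 210 and 191 FPKM, Xcl1 at 12.4, 6.03, 19.0 and 17.8 FPKM and Ifng at 1.94, 1.10, 2.86 and 1.73 FPKM, each lowest in WT/FE. Xcl1 and Gzmk were the 2 of these 6 genes at least 2-fold higher in MA9/FE than in WT/FE, where 3.03% of all genes tested were. Il17a had no read in any macrophage library.

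**Figure D4:**
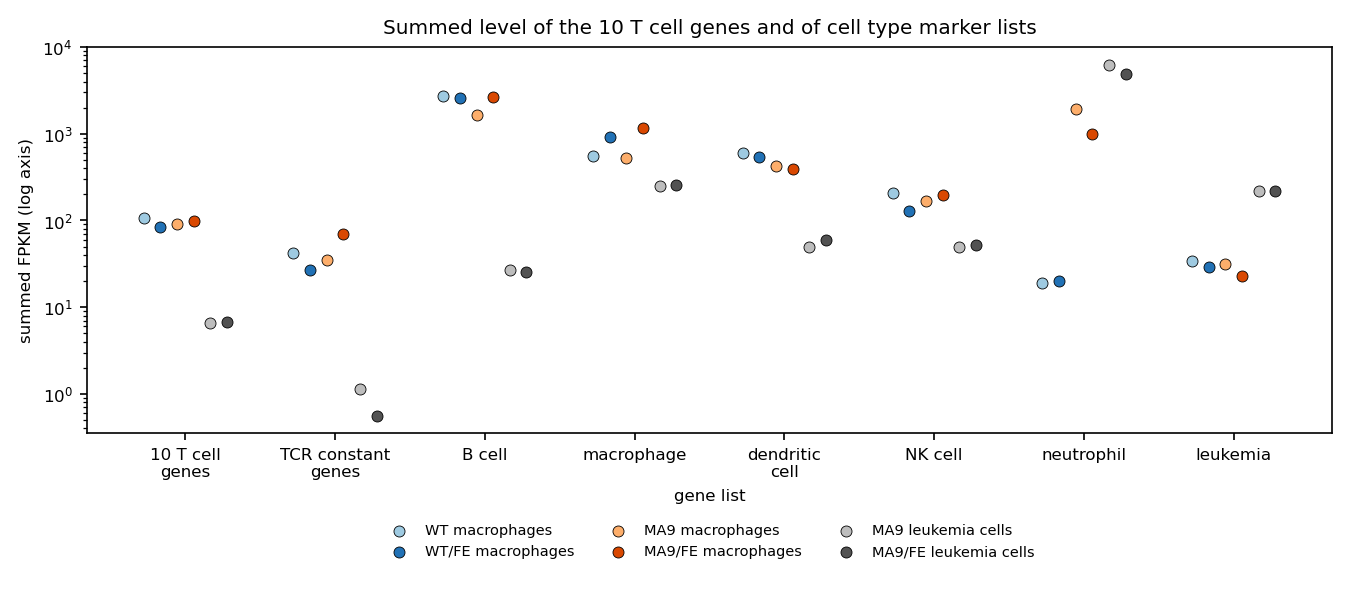
Summed FPKM (log axis) of the 10 genes, of the T cell receptor constant genes and of 6 cell type marker lists, 1 point per library. The 10 genes summed to 106, 84.3, 91.6 and 98.4 FPKM in the WT, WT/FE, MA9 and MA9/FE macrophage libraries, far below the B cell list in each, and to 6.59 and 6.82 FPKM in the leukemia cells.

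The genes with profiles nearest to the mean of Cd3d, Cd3e and Cd3g over the 6 libraries were Mrpl52, Lat, Pdia4, Coro2b and B2m, at a root mean square distance of 0.12 to 0.18 on the log2 scale among 12033 genes considered. Lat and Cd6 were the only genes of the T cell lists among the nearest 10. Nearest to Cd4 were Adgrg5 (0.0942) and Itgax (0.134), and nearest to Cd8b1 was Rgs13 at a distance of 0.30. The next 9 for Cd8b1 were Hspa1b, Hspa1a, Cldn13, Ighe, Isg20, Thy1, Blvrb, Nuggc and Klf1, at 0.32 to 0.47, and Thy1 was the only one of them in a T cell list. These distances describe 6 libraries, which all genes share, and carry no test.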

How the data were processed

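Macrophages and leukemia cells were sequenced as 6 libraries, 1 per condition, and mapped to groups by the labels. The deposited values were FPKM per gene. The submitters' processing notes name Bowtie2 2.2.5, RSEM and mm10, and the order of steps was not given in the sources used here. Reads were recovered from the step between FPKM values of a library and the union exon length of GENCODE M21, and 96.8% to 97.0% of values were whole within 0.05 reads. For Foxp3 the M21 length of 4577 bases did not give whole reads. A length of 3989 bases, which made its values whole in all 6 libraries, was used for its reads and intervals instead.

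Pairs of libraries were scaled by TMM (trimming 30% of log ratios and 5% of levels) and compared on log2(FPKM + 1), which understates the difference of scarce genes. A call needed a fold of 2 and 10 reads in one library. Ratios of recovered reads carry exact conditional 95% intervals, and levels exact Poisson intervals. limma 3.58.1 (R 4.3.3) with a mean-dependent prior was fitted to genes with 10 reads in at least 2 libraries, and p-values were adjusted over all genes by Benjamini-Hochberg. These p-values set each term against the departure of single libraries from additivity. That departure may be technical or an iron effect that differs with leukemia, and both count as error. The scripts were tested on simulated data. Promoter sequences came from RefSeq (GRCm38.p6), and 7 of the 10 genes matched.

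The genes and lists were chosen with earlier results of these data known. The text names all 10 genes and, per T cell list, the 3 most abundant genes and those past 2-fold with 50 reads or more. Other list genes passing limma, Il17a, Itgax, Wdfy4, Kit, Cd34, Hoxa5 and Hoxa9 were named after their values were seen, as were the profiles nearest to Cd4 and Cd8b1. Marker lists covered B cells, macrophages, dendritic cells, NK cells, neutrophils, plasma cells, erythroid cells and leukemia cells. Alternatives changed the scaling, the pseudocount, the minimum of reads and the length trend.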

Additional observations from a re-analysis of the deposited data

Results flagged for a closer look

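The ratio of iron to PBS lay on opposite sides of 1 in macrophages of mice without and with leukemia for 4 of the 10 genes, beyond counting error in each pair. In either order it did so for 15.7% of the 15794 genes with 10 reads in both comparisons. All 4 were below 1 without leukemia and above 1 with it, as 10.2% of those genes were. Cd3d was at 0.576 in WT/FE against WT and at 2.10 in MA9/FE against MA9. Cd8b1 was at 0.517 and 2.04, Lck at 0.732 and 1.43, and Cd8a at 0.788 and 1.10 in the same order, where the Cd8a interval in leukemic mice held 1 with scaling by total reads or by the median of ratios. With 1 library per condition, the difference between the ratios was not tested.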

How the results depend on the processing

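No gene past 2-fold or past the limma threshold changed direction under the alternatives run. Of 484 log2 differences recomputed for the 10 genes, 430 moved by less than their counting error and 54 by more, all with a smaller or no pseudocount. With a pseudocount of 0.1, genes past 2-fold among all genes numbered 785 for WT/FE against WT, 1981 for MA9 against WT, 2082 for MA9/FE against WT/FE, 1495 for MA9/FE against MA9 macrophages, 629 for leukemia cells with iron, and 5795 (MA9) and 6486 (MA9/FE) for leukemia cells against macrophages. Of the 10 genes, 3 were then past 2-fold in MA9/FE against MA9 macrophages, all higher, as were 632 of the 16493 genes tested. In leukemia cells with iron 2 were, both lower, as were 305 of the 15393 genes tested. With no minimum of reads the counts over all genes were 479 for WT/FE against WT, 731 for MA9/FE against MA9 macrophages and 375 for leukemia cells with iron, and 0 of the 10 genes passed the limma leukemia term, of which 1 gene of 27356 was called. With the length trend removed, 0 of the 10 were past 2-fold in MA9/FE against MA9 macrophages. Depth limits the leukemia cell values, where 5 of the 10 genes had fewer than 10 reads in both libraries. Leaving out a library was not run, because a pair then has no partner and the limma fit no residual. No paired analysis was possible because the labels number no replicates. The fit of iron over 3 pairs of libraries pairs PBS with iron within a condition, not replicates.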
